A study of Mus musculus with 2 samples.

Results

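The immunoproteasome subunits and proteasome activators were taken as 8 genes of the 32285 in the deposited tables, chosen by symbol. They are the immune catalytic subunits Psmb8, Psmb9 and Psmb10, the PA28 subunits Psme1, Psme2 and Psme3, the PA200 gene Psme4 and the inhibitor gene Psmf1. Their transcripts were counted in whole testis of 13-day-old male C57BL/6 mice with 10x Chromium 3' V3 single-cell libraries. Each unique molecular identifier (UMI) in them stands for a captured RNA molecule. The knockout, Psma7 F/-;Stra8-Cre KI/+, and its control, Psma7 F/+, had 1 library each. Psma7 encodes an alpha subunit of the core proteasome. The Cre was knocked in at Stra8, a gene that germ cells switch on from the spermatogonial stages, while the minus allele was carried by all cells of the knockout. The control carried neither the Cre nor the minus allele, and the number of animals behind a library is not given in the sources used here.

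The core (20S) proteasome is a barrel whose beta subunits cut proteins. In its standard form the cutting is done by Psmb5, Psmb6 and Psmb7. Interferon gamma and immune cell identity bring in Psmb8, Psmb9 and Psmb10 in their place, and the resulting immunoproteasome makes more of the peptides that MHC class I molecules show to T cells. The ends of the barrel can carry activators: PA28 alpha and beta (Psme1 and Psme2) form a mixed cytoplasmic ring that is also interferon-inducible, PA28 gamma (Psme3) forms a nuclear ring, and PA200 (Psme4) is a large nuclear activator known in mouse testis for the removal of acetylated histones. PI31 (Psmf1) binds the core and was first described as its inhibitor.

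In the mm10 annotation Psmb8 lies on the plus strand of chromosome 17 at 34197721 to 34201454 and Psmb9 on the minus strand at 34181987 to 34187764, both inside the MHC region. Between them lies Tap1, which encodes a part of the peptide transporter of MHC class I loading. It starts inside Psmb9 on the opposite strand, sharing 212 bases with it, and ends 495 bases before Psmb8. Psmb10 lies on chromosome 8 at 105935735 to 105938444, Psme1 on chromosome 14 at 55578123 to 55581529 and Psme2 on chromosome 14 at 55587441 to 55591113, 5911 bases further on. Psme3 (101316213 to 101323537) and Psme4 (30771726 to 30880361) lie on chromosome 11, and Psmf1 on chromosome 2 at 151715812 to 151744186. No member overlaps another gene on its own strand in GENCODE M21, while Psmb8, Psmb9, Psmb10, Psme1 and Psme4 each overlap a gene or pseudogene on the other strand; whether counting used strand is not given in the sources used here. Psme2 has a near-identical copy, Psme2b, with 99.2% identity over 600 aligned bases, which held 28 UMIs in called cells of the knockout library and 34 in those of the control, so reads that match both could not have been assigned with certainty.

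The RefSeq promoter windows (GRCm38.p6, 250 bases before to 50 after the start) were found for all 8 members and were searched for the core of interferon regulatory factor sites (GAAANNGAAA, both strands), since these factors act in the interferon response. The 5 windows of the interferon-inducible members are shown because their levels are compared below. Capitals mark a match, and each is read 5′ to 3′ on the gene's strand.
Psmb8 promoter, chr17:34197945-34198244, plus strand: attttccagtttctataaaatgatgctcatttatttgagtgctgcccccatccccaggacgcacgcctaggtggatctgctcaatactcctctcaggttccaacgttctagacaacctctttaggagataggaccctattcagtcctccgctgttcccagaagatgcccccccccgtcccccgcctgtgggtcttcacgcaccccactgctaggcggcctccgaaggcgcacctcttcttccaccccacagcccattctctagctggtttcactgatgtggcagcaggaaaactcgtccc
Psmb9 promoter, chr17:34187281-34187580, minus strand: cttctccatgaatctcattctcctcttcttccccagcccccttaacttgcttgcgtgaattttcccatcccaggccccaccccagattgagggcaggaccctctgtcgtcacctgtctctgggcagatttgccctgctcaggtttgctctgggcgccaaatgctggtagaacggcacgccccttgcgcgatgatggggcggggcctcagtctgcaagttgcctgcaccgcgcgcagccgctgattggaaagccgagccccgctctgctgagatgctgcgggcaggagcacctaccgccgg
Psmb10 promoter, chr8:105938343-105938642, minus strand: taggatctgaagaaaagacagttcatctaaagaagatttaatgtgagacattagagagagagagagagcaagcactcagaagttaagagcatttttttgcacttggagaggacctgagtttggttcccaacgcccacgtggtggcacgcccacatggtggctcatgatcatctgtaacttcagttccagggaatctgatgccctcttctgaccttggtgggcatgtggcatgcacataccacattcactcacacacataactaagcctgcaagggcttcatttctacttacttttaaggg
Psme1 promoter, chr14:55578244-55578543, plus strand: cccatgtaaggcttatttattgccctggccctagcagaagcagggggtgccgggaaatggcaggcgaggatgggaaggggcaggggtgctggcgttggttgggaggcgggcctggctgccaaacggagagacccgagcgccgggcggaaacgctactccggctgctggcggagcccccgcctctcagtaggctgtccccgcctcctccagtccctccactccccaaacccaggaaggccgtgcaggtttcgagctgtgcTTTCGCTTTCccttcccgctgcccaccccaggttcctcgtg
Psme2 promoter (the first of its windows), chr14:55591052-55591351, minus strand: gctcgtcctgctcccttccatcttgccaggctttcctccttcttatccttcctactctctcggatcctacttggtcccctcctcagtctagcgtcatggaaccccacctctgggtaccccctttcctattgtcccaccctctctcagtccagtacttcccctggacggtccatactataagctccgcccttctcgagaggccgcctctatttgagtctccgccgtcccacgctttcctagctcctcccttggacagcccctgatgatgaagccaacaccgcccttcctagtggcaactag
The core was found in 1 member, Psme1, beginning at +9 from the start, and it is in 3.44% of 32851 RefSeq mouse promoters. These letters are not in the other member windows. The Psmb9 window shares 275 bases with that of Tap1, read from the other strand.

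The knockout library held 10864 called cells and 94938100 UMIs in them, and the control library 11232 cells and 126254714 UMIs, with medians of 5482 and 8372.5 UMIs per cell. Of the called cells, 29 barcodes were in both libraries. After doublet removal, germ cells of all named stages made up 3.78% of knockout cells and 35.2% of control cells. Psma7 itself had 97.6 UMIs per 1000000 (CPM) over called cells of the knockout library and 229 CPM in the control, and it was lower in knockout cells of all 8 classes compared, with log2 ratios from -2.49 in differentiating spermatogonia to -1.06 in macrophage-like cells. With 1 library per genotype there was no test between genotypes. All intervals are 95% intervals of counting error alone and do not cover differences between animals, and PCR and capture add error that they do not hold. Cells were grouped without using the members, so that a class below means cells that resemble it by other transcripts.

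Macrophage-like cells carried the immune catalytic subunits at the highest level of any class in both libraries. Psmb8, which replaces Psmb5, had 206 CPM in macrophage-like cells of the knockout library (352 UMIs) and 166 CPM in those of the control (239 UMIs). In all other cells together it had 2.94 CPM in the knockout library and 2.17 CPM in the control, so that macrophage-like cells stood 70.0-fold (59.5 to 82.5) and 76.1-fold (63.5 to 91.3) above the rest. Psmb9, which replaces Psmb6, was 26.8-fold higher in macrophage-like cells than in the rest of the knockout library and 33.7-fold higher in the control, at 124 CPM and 114 CPM. Psmb10, which replaces Psmb7, was 5.87-fold and 4.57-fold higher, at 97.0 CPM and 84.5 CPM. The gap between macrophage-like and other cells thus narrowed in the order Psmb8, Psmb9, Psmb10 in both libraries.

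These cells were few, 130 of 10589 in the knockout library (1.23%) and 120 of 10737 in the control (1.12%). They held 57.3% of all Psmb8 UMIs in the knockout library and 49.0% in the control, and 33.9% and 29.8% of Psmb9. Over the 3 immune subunits they held 25.4% (23.8 to 27.0) in the knockout library and 16.02% (14.8 to 17.3) in the control, with 1.88% and 1.25% of all UMIs. A Psmb8 UMI was seen in 69.2% of macrophage-like cells of the knockout library and in 70.0% of those of the control. In Sertoli-like cells, the class taken as background, the share was 0.199% and 0.234%, at median depths of 4104 and 5087 UMIs against 10707.5 and 10616.5 UMIs in macrophage-like cells. With each cell thinned to 3000 UMIs, which left out 20 and 17 shallower macrophage-like cells, the shares became 43.0% and 38.1%, against 0.120% and 0.0777% in Sertoli-like cells, of which 1801 and 685 were left out.

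The class was led by macrophage genes such as Lyz2, Pf4 and the complement genes C1qa, C1qb and C1qc. The 12 macrophage markers summed to 14619 CPM in the knockout library and 15292 CPM in the control, with none at 0. Lymphocyte markers were also present, at 783 CPM and 607 CPM summed over 11 markers, none at 0. They gathered in a sub-cluster of 30 knockout and 19 control cells led by Cd7, Cxcr6, Gzma, Xcl1 and Ifng, in which Psmb8 had 260 CPM (200 to 333) in the knockout library and 195 CPM (122 to 295) in the control. A sub-cluster led by Il1b, Thbs1 and Tnip3, of 14 cells in each library, had Psmb8 at 236 CPM (177 to 309) and 308 CPM (230 to 402). The largest remaining sub-cluster with no lead of another tissue cell type, of 21 and 39 cells, had 213 CPM (167 to 267) and 146 CPM (112 to 188). Psmb8 was thus high in lymphocyte-led and macrophage-led cells alike. Other sub-clusters were led by genes of other testis cells. The sub-cluster led by Ctnna2, Sox9 and Erbb4 (23 and 8 cells) had Psmb8 at 113 CPM and 128 CPM, that led by germ cell genes such as Sycp1 and Dazl (14 and 15 cells) at 257 CPM and 152 CPM, and that led by Acta2, Col1a2 and Col3a1 (9 and 7 cells) at 64.0 CPM and 120 CPM. Over the whole class the 15 Sertoli markers summed to 1332 CPM and 1215 CPM and the 12 stromal markers to 1192 CPM and 1225 CPM, none at 0, and their part in the class levels was not tested.

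Endothelial-like cells came next for Psmb8 and Psmb9, while for Psmb10 differentiating spermatogonia of the knockout library and undifferentiated spermatogonia of the control stood above them, with overlapping intervals. Psmb8 had 54.8 CPM in the knockout library (50 UMIs) and 61.8 CPM in the control (113 UMIs), Psmb9 had 29.6 CPM and 44.8 CPM, and Psmb10 had 37.2 CPM and 44.8 CPM. A Psmb8 UMI was in 35.9% and 44.3% of these 64 and 88 cells. The 12 macrophage markers were at 63.5 CPM in the knockout's and 31.7 CPM in the control's endothelial-like cells, with Adgre1 and Tyrobp at 0 in both, and the 6 erythroid markers at 2003 CPM and 347 CPM; their part in these levels was not tested. Leydig-like cells, the steroid producers, had lower Psmb8 at 8.14 CPM and 7.23 CPM but Psmb10 at 37.0 CPM and 33.2 CPM, whose intervals overlap with those of endothelial-like cells. Interstitial stromal and peritubular myoid cells had Psmb8 between 2.03 and 4.05 CPM over both libraries.

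In germ cells and Sertoli-like cells Psmb8 was at the edge of detection. Undifferentiated spermatogonia had 2 UMIs among 290 cells of the knockout library and 5 UMIs among 516 cells of the control. Differentiating spermatogonia had 2 and 3 UMIs among 104 and 1011 cells, and Sertoli-like cells had 0.331 CPM and 0.309 CPM. Early meiotic cells, present in the control library alone, had 5 UMIs among 1335 cells. Control germ cells whose stage was not resolved had 0 UMIs among 920 cells, which allows up to 0.246 CPM. Free RNA from broken cells, set at its upper limit by the Sertoli markers found in spermatogonia, would give 140% of the Psmb8 UMIs of knockout undifferentiated spermatogonia and 66.1% of those of control ones, so no expression is read from them.

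**Figure D1:**
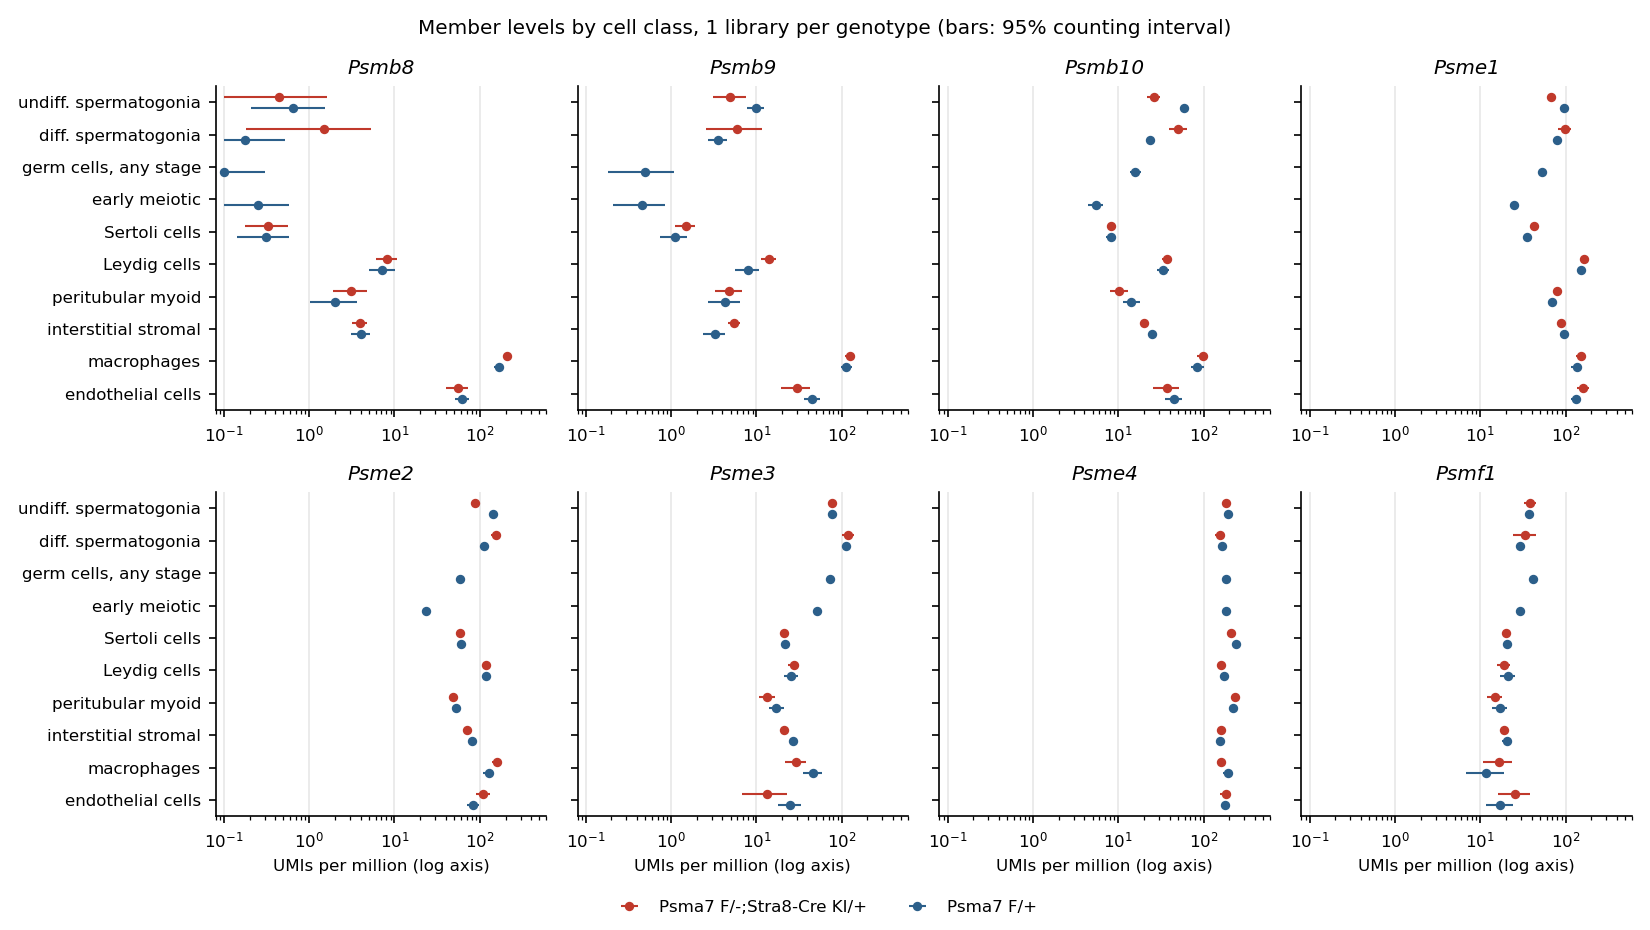
Level of each member in CPM on a log axis, by cell class, with the Psma7 F/-;Stra8-Cre KI/+ library above the Psma7 F/+ library in each row. Points are 1 library each and bars the 95% counting interval, with values under 0.1 drawn at 0.1. Psmb8 spans from at most 1.48 CPM in germ and Sertoli-like cells to 206 and 166 CPM in macrophage-like cells, whereas Psme4 stays between 155 and 242 CPM.

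Outside macrophage-like and endothelial-like cells Psmb10 had the highest level of the 3 immune subunits in every class. Germ cells of all stages held 11.2% of its UMIs in the knockout library and 51.1% in the control. Undifferentiated spermatogonia, which include the germline stem cells, had 26.0 CPM in the knockout library (116 UMIs) and 58.3 CPM in the control (449 UMIs). The control level was second among the control classes and its interval overlapped that of endothelial-like cells at 44.8 CPM. A Psmb10 UMI was in 87 of 290 knockout and 230 of 516 control undifferentiated spermatogonia at median depths of 13180 and 13274.5 UMIs, and in 7.17% and 14.6% after thinning to 3000 UMIs. Free RNA at its Sertoli-marker limit would give 5.24% and 4.63% of these Psmb10 UMIs, and at a limit set by macrophage markers 13.1% and 7.77%.

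Within the control germ line Psmb9 and Psmb10 were lower in each later class. Psmb10 had 58.3 CPM in undifferentiated spermatogonia, 23.6 CPM in differentiating spermatogonia and 5.42 CPM in early meiotic cells, where it was 10.8-fold lower than in undifferentiated spermatogonia (8.70 to 13.4). Psmb9 had 9.87, 3.53 and 0.452 CPM at the same stages, 21.8-fold lower in early meiotic cells (10.9 to 49.6). Inside the early meiotic class, the cluster led by Stra8 and M1ap had Psmb10 at 7.53 CPM and the later cluster led by Meiob, Sycp3 and Spo11 had 1.98 CPM. The 231 control cells of the shallow differentiating cluster stood apart, with Psmb10 at 55.5 CPM (38.5 to 77.6), Psme1 at 150 CPM and Psme2 at 209 CPM, against 94.5 CPM and 141 CPM for Psme1 and Psme2 in undifferentiated spermatogonia. At the Sertoli-marker limit free RNA would give 62.0% of the early meiotic Psmb10 UMIs, and at the macrophage-marker limit 27.8%. The level there is thus an upper one. The constitutive counterparts differed far less: early meiotic cells were 1.46-fold lower for Psmb5, 1.37-fold for Psmb6 and 1.17-fold for Psmb7.

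**Figure D2:**
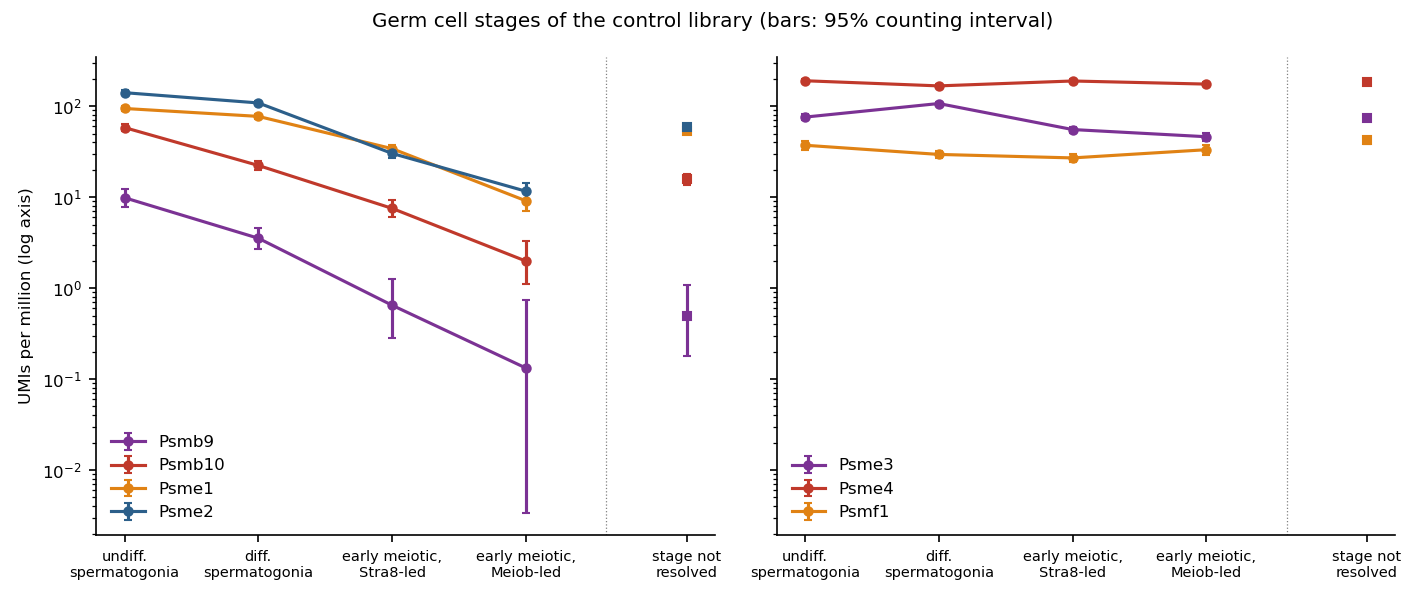
Levels of 7 members in CPM on a log axis across germ cell clusters of the Psma7 F/+ library, in stage order, with the cluster of unresolved stage set apart at the right; bars are 95% counting intervals. In the 4 staged clusters drawn, Psmb9, Psmb10, Psme1 and Psme2 are lower at each later stage; the shallow differentiating cluster is not drawn, and Psme4 stays near 184 CPM in early meiotic cells against 191 CPM in undifferentiated spermatogonia.

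Seen as a share, Psmb8, Psmb9 and Psmb10 gave 50.6% of the UMIs of the 6 catalytic subunits in macrophage-like cells of the knockout library and 47.3% in those of the control. Counts of 3' tags are not meant to scale with transcript length, although capture can differ between genes. Whether reads in introns were counted is not given in the sources used here. By pair, Psmb8 gave 62.4% and 54.3% of Psmb8 and Psmb5, Psmb9 gave 37.9% and 38.6% of Psmb9 and Psmb6, and Psmb10 gave 51.7% of Psmb10 and Psmb7 in the knockout library and, with 122 UMIs of each gene, an equal part in the control. In endothelial-like cells the immune share was 24.4% and 28.9%, and in Leydig-like cells 10.9% and 8.61%. Undifferentiated spermatogonia had 4.68% (3.95 to 5.50) in the knockout library and 10.5% (9.66 to 11.4) in the control, intervals that do not overlap. Early meiotic cells of the control had 1.39% (1.15 to 1.65), the lowest of the 10 control classes.

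**Figure D3:**
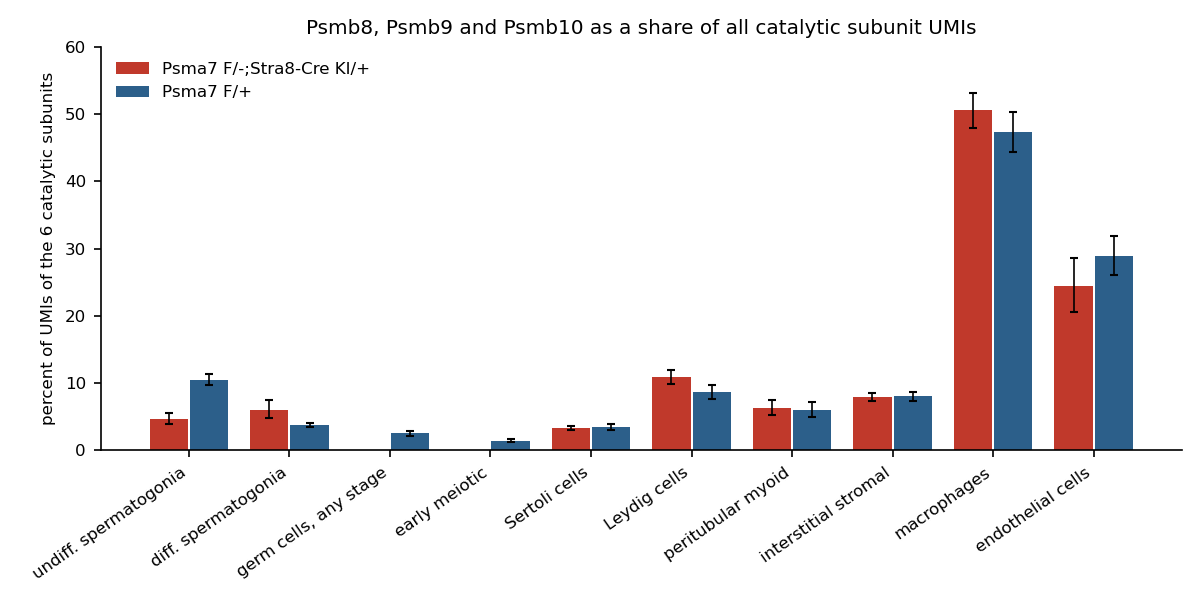
UMIs of Psmb8, Psmb9 and Psmb10 as a percent of all UMIs of the 6 catalytic subunits in each class, with the Psma7 F/-;Stra8-Cre KI/+ library left of the Psma7 F/+ library; bars start at 0 and whiskers are 95% binomial intervals. Macrophage-like cells reach 50.6% and 47.3%, and undifferentiated spermatogonia 4.68% and 10.5%; early meiotic cells and those of unresolved stage are shown for the control alone.

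Between genotypes, undifferentiated spermatogonia had more members past 1.5-fold, all lower, than any other of the 8 classes compared. Of the 8 members 7 had at least 30 UMIs over both libraries there, 3 were at least 1.5-fold lower in the knockout library (Psmb9, Psmb10 and Psme2) and 0 were that much higher, where 8.38% of all 14993 genes measured in the class were lower and 14.3% higher. The median log2 ratio was -0.47 over the measured members and 0.05 over all measured genes. Psmb10 was 2.24-fold lower, a log2 ratio of -1.16 (-1.47 to -0.87), which put it at the 2.07th percentile of measured genes. Psmb9 had 4.92 CPM in the knockout library and 9.87 CPM in the control (22 and 76 UMIs), a ratio of -0.98 (-1.76 to -0.30). Psme2 had 88.6 CPM and 141 CPM (-0.67, -0.84 to -0.50) and Psme1 68.0 CPM and 94.5 CPM (-0.47, -0.67 to -0.28). The counterparts Psmb5, Psmb6 and Psmb7 stood at 0.03, 0.09 and 0.30, and Psme3, Psme4 and Psmf1 at 0.02, -0.07 and 0.05.

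The class was not the same mix of cells in both libraries. It fell into 9 sub-clusters, chosen after the values were seen, and 1 of them, led by Onecut2, Esr1, Upp1 and Fli1, held 8 knockout and 132 control cells with Psmb10 at 27.6 CPM (5.70 to 80.7) in the knockout library and 87.5 CPM (74.8 to 102) in the control. Sub-cluster 7 was led by Stra8 and Kit, and sub-cluster 9 by Sertoli genes such as Sox9, Aard and Clu. Sub-cluster 5 had mitochondrial genes among its leading genes. The class ratios were not recomputed without these sub-clusters. Of the 5 sub-clusters with at least 20 cells in each library, Psmb10 was lower in the knockout library in 4, and the intervals of the libraries did not overlap in 2 of these 4. Over the same 5, Psme2 was lower in 4, Psme1 in 3 and Psmb9 in 2, each being higher in the others. In the sub-cluster with most knockout cells, 101 against 39 control cells, Psmb10 had 22.0 CPM (14.7 to 31.6) and 57.7 CPM (40.2 to 80.2). With the control weighted to the sub-cluster mix of the knockout, the control level of Psmb10 became 44.8 CPM and its ratio -0.79. The ratio was then -0.66 for Psmb9, -0.49 for Psme2, which was under 1.5-fold, and -0.14 for Psme1. The 15 Sertoli markers summed to 545 CPM in the knockout's and 294 CPM in the control's undifferentiated spermatogonia, none at 0, and the 12 macrophage markers to 65.4 CPM and 32.9 CPM, with Tyrobp at 0 in the knockout and Adgre1 at 0 in the control. Their part in the ratios was not tested beyond the 10% subtraction of free RNA, with which Psmb9 stood at -1.24.

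**Figure D4:**
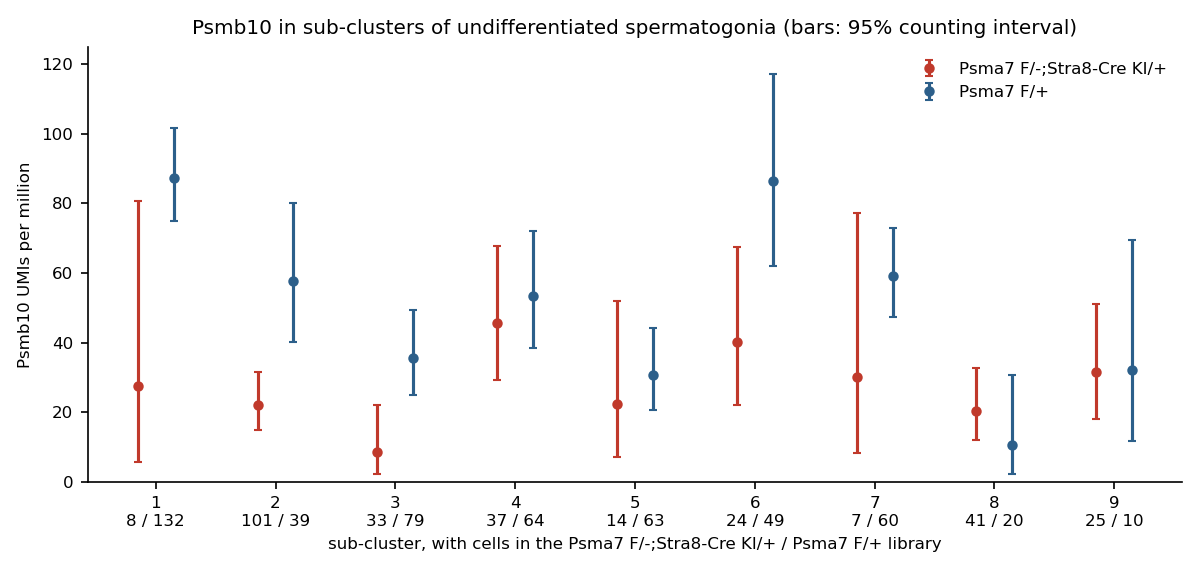
Psmb10 level in CPM in 9 sub-clusters of undifferentiated spermatogonia, with the Psma7 F/-;Stra8-Cre KI/+ library left of the Psma7 F/+ library and cell numbers in the same order; bars are 95% counting intervals. Sub-cluster 1, with 8 and 132 cells, has the highest control level at 87.5 CPM, and sub-cluster 2, with 101 and 39 cells, has 22.0 and 57.7 CPM.

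In differentiating spermatogonia, the KIT-positive cells that follow, the direction was upward for the members past the fold. Of 7 measured members 2 were at least 1.5-fold higher in the knockout library and 0 lower, where 16.2% of 15473 genes were higher and 10.1% lower. Psmb10 had 50.5 CPM in the knockout library (68 UMIs) and 23.6 CPM in the control (394 UMIs), a ratio of 1.11 (0.71 to 1.47). Psmb9 had 5.94 CPM and 3.53 CPM (0.83, -0.53 to 1.82), from 8 and 59 UMIs, an interval that includes 0. Psme2 had 155 CPM and 112 CPM (0.47, 0.25 to 0.67) and Psme1 97.2 CPM and 80.1 CPM (0.29, 0.01 to 0.54), both under 1.5-fold. The class had only 104 knockout cells, 57 of them in a cluster with medians of 1693 and 1913 UMIs per cell. In the deeper cluster, of 47 and 780 cells, Psmb10 had 41.4 CPM and 22.3 CPM (0.90, 0.43 to 1.33), and in the shallow one, of 57 and 231 cells, 115 CPM and 55.5 CPM (1.07, 0.16 to 1.90). Psme1 did not differ in the deeper cluster beyond counting error, at 77.0 CPM and 77.4 CPM (-0.33 to 0.30), and had 242 CPM and 150 CPM in the shallow one (0.70, 0.12 to 1.24). Psme2 had 144 CPM and 109 CPM in the deeper cluster (0.41, 0.17 to 0.63) and 236 CPM and 209 CPM in the shallow one (0.19, -0.38 to 0.70). In the knockout library Psmb10 was therefore 1.94-fold higher (1.42 to 2.64) in differentiating than in undifferentiated spermatogonia, whereas in the control it was 2.48-fold lower (2.16 to 2.84). The Sertoli markers summed to 553 CPM in the knockout and 268 CPM in the control here, and their part in the ratios was not tested.

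In somatic classes the members differed little between the libraries. In Sertoli-like cells, 7 members were measured and 0 were past 1.5-fold, where 18.3% of 16865 genes were higher and 8.86% lower; different clusters hold most of this class in the 2 libraries (0, 2 and 7 in the knockout, 3, 5 and 6 in the control). Psmb9 was 1.75-fold higher in knockout Leydig-like cells, at 13.9 CPM and 7.87 CPM (0.81, 0.26 to 1.41), and 1.68-fold higher in interstitial stromal cells, at 5.48 CPM and 3.24 CPM (0.75, 0.28 to 1.26). Each of these classes had this 1 member of 8 past the fold, where 5.27% of Leydig and 6.05% of stromal genes were higher and 4.43% and 3.06% lower. Psmb8 was the 1 member past the fold in peritubular myoid cells, at 3.11 CPM and 2.03 CPM (0.59, -0.52 to 1.82), from 20 and 11 UMIs, of which free RNA at the Sertoli-marker limit would give 44.9% and 77.3%, where 5.91% of genes were higher and 6.85% lower. At the macrophage-marker limit free RNA would give 35.6% and 35.1% of these Psmb8 UMIs. In macrophage-like cells 1 of 8, Psme3, was lower, where 8.06% of genes were lower and 6.87% higher. It had 29.2 CPM in the knockout library and 45.7 CPM in the control (-0.64, -1.21 to -0.09). Free RNA at the Sertoli-marker limit would give 17.2% and 38.2% of these Psme3 UMIs. Its part in the ratio was not tested beyond the 10% subtraction of free RNA. There Psmb8 stood at 0.31 (0.07 to 0.56), Psmb9 at 0.12 and Psmb10 at 0.20. In endothelial-like cells 1 of 8, Psme3, was lower, from 12 and 45 UMIs (-0.86, -1.96 to 0.04), where 5.55% of genes were lower and 8.65% higher. The Sertoli-marker limit would give 25.3% of these UMIs in the knockout library and 46.8% in the control, and the macrophage-marker limit 38.2% and 27.9%.

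PA28 alpha and beta, Psme1 and Psme2, were found in every class and were not limited to those rich in immune subunits. Psme1 was highest in Leydig-like cells, at 166 CPM in the knockout library and 153 CPM in the control, with intervals that overlap those of endothelial-like and macrophage-like cells in both libraries. It was lowest in Sertoli-like cells of the knockout library at 42.3 CPM and in early meiotic cells of the control at 24.6 CPM. Psme2 was highest in macrophage-like cells of the knockout library, 157 CPM, and in undifferentiated spermatogonia of the control, 141 CPM, whose interval overlapped that of control macrophage-like cells at 128 CPM. In the control germ line both were lower in early meiotic than in undifferentiated spermatogonia, 3.84-fold for Psme1 (3.42 to 4.31) and 6.08-fold for Psme2 (5.45 to 6.80). Psme1 gave 43.4% of the UMIs of the pair in knockout undifferentiated spermatogonia and 40.1% in control ones, and 48.9% and 51.3% in macrophage-like cells.

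PA28 gamma, Psme3, was highest in spermatogonia. Differentiating spermatogonia had the highest level in both libraries, 119 CPM in the knockout and 111 CPM in the control, above undifferentiated spermatogonia at 77.0 CPM and 76.0 CPM with intervals that do not overlap. Control germ cells of unresolved stage, whose leading genes held Esx1 and Dmrtb1, had 73.7 CPM. Peritubular myoid cells had 13.4 CPM and 17.2 CPM, endothelial-like cells 13.1 CPM and 24.6 CPM, and Sertoli-like cells 20.8 CPM and 21.7 CPM. Free RNA at the Sertoli-marker limit would give 34.4% of the myoid Psme3 UMIs in the knockout library and 90.1% in the control. At the macrophage-marker limit it would give 27.3% and 40.9%. Germ cells held 22.2% of Psme3 UMIs in the knockout library and 75.6% in the control. Over all called cells Psme3 had 25.0 CPM in the knockout library and 50.1 CPM in the control, while within undifferentiated and differentiating spermatogonia the log2 ratios between the libraries were 0.02 and 0.11. The whole-library level by itself cannot tell fewer cells of a type from less RNA per cell, whereas the 2 class ratios are within a type. What set the whole-library difference was not tested. Among all called cells 20.4% of 21534 genes were at least 1.5-fold higher in the knockout and 26.0% lower.

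PA200, Psme4, was the most even of the members. Its class levels ran from 157 to 233 CPM in the knockout library, a 1.48-fold range, and from 155 to 242 CPM in the control, a 1.56-fold range; for Psmb9 the ranges were 83.8-fold and 251-fold. Sertoli-like cells had 207 CPM in the knockout library and 242 CPM in the control (-0.23, -0.27 to -0.18), and peritubular myoid cells 233 CPM and 219 CPM. Early meiotic cells of the control had 184 CPM and undifferentiated spermatogonia 191 CPM, a log2 ratio of -0.05 (-0.14 to 0.04). Because the PA28 genes were lower there, Psme4 made up 64.9% of activator UMIs (Psme1 to Psme4) in early meiotic cells and 37.98% in undifferentiated spermatogonia of the control. In clusters of cells with few UMIs Psme4 was low: 32.4 CPM and 20.3 CPM in such a Sertoli-like cluster and 24.2 CPM and 32.7 CPM in the shallow differentiating cluster. Psme4 is the longest member gene, at 108636 bases, and any part of intron reads in its levels was not tested.

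PI31, Psmf1, had its highest levels in germ cells. Undifferentiated spermatogonia had 38.5 CPM in the knockout library and 37.3 CPM in the control, and differentiating spermatogonia 33.4 CPM and 29.2 CPM. The highest control level was in germ cells of unresolved stage, 42.0 CPM. Macrophage-like cells had 16.4 CPM and 11.8 CPM, from 28 and 17 UMIs, and peritubular myoid cells 14.8 CPM and 16.8 CPM. No Psmf1 ratio between the libraries passed 1.5-fold in any of the 8 classes.

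The genes of MHC class I antigen processing, which use immunoproteasome products, were followed as a list of 14. In undifferentiated spermatogonia 11 were measured, 6 were at least 1.5-fold lower in the knockout library and 0 higher, where 8.38% of all measured genes were lower, with a median ratio of -0.63 against 0.05 for all measured genes. The lowest were Nlrc5, the transactivator of MHC class I genes, with 3 UMIs in the knockout library and 43 in the control (-2.85, -5.39 to -1.41), and Erap1, a peptidase that trims peptides, with 19.7 CPM and 52.6 CPM (-1.41, -1.77 to -1.08). H2-Q7, H2-K1, H2-D1 and Tapbp stood at -1.40, -0.95, -0.80 and -0.63. B2m, the light chain, was at 0.32 (0.03 to 0.60) and Canx, a folding chaperone, at 0.22. Tap1, next to Psmb9, had 3 UMIs in each library and was not measured. The ratios of this list were not weighted to the knockout's sub-cluster mix, which differed from the control's in this class. In differentiating spermatogonia 10 were measured, 3 higher and 2 lower, where 16.2% and 10.1% of all genes were, with B2m at 45.3 CPM and 19.9 CPM (1.19, 0.77 to 1.58). Sertoli-like cells had 3 of 13 higher and 1 lower, H2-K1 (-0.75, -0.88 to -0.62), against 18.3% and 8.86%. Peritubular myoid cells had 3 of 14 higher and 0 lower, against 5.91% and 6.85%. Leydig-like cells had 1 of 13 and 0 (5.27% and 4.43%), interstitial stromal cells 2 of 14 and 0 (6.05% and 3.06%). Endothelial-like cells had 1 of 14 and 0 (8.65% and 5.55%). In macrophage-like cells all 14 were measured, 3 higher and 0 lower, where 6.87% and 8.06% of all genes were, with H2-Q7 at 1.16 and Nlrc5 at 0.67. The list's highest levels there were those of B2m, with 1683 CPM in the knockout library and 1546 CPM in the control, H2-D1, with 1200 CPM and 1008 CPM, and H2-K1, with 1190 CPM and 1140 CPM. Tap1 had 46.1 CPM and 41.6 CPM.

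**Figure D5:**
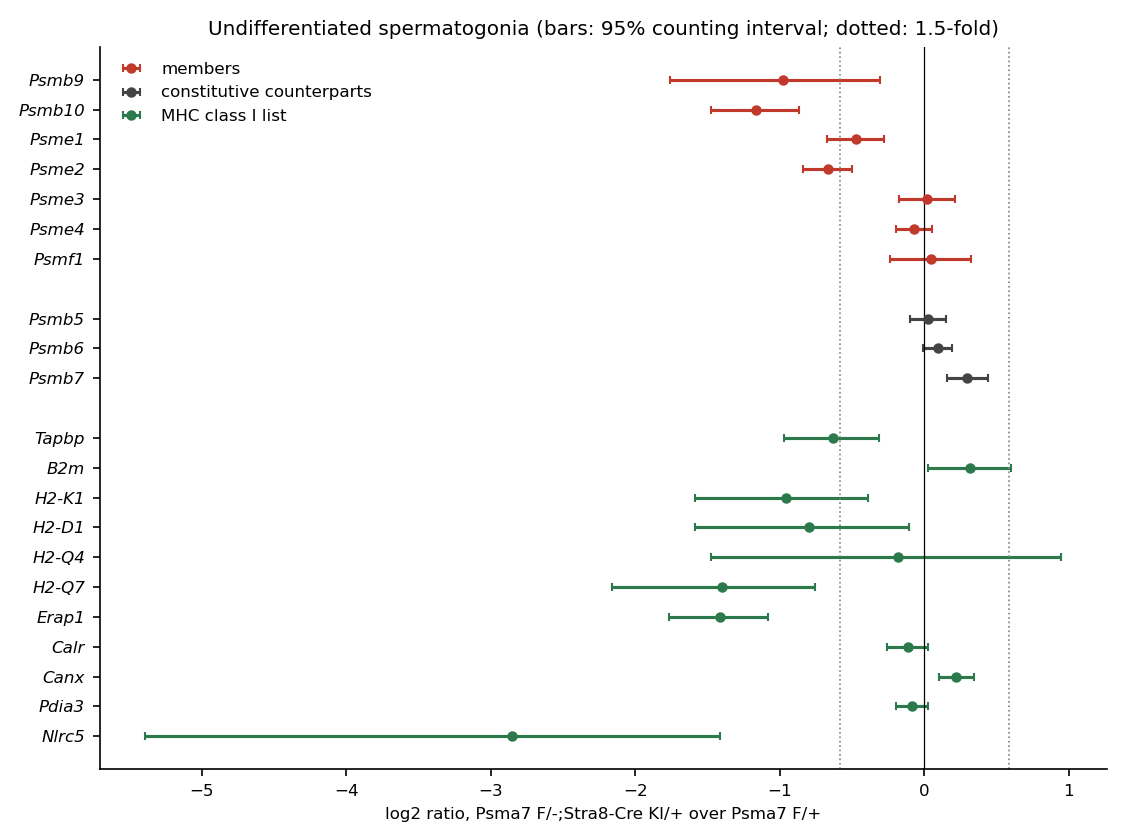
Log2 ratio of the Psma7 F/-;Stra8-Cre KI/+ over the Psma7 F/+ library in undifferentiated spermatogonia for the 7 measured members, their 3 constitutive counterparts and the 11 measured genes of the MHC class I list; bars are 95% counting intervals and dotted lines mark 1.5-fold. Psmb10 at -1.16, Psmb9 at -0.98, Psme2 at -0.67 and 6 genes of the MHC class I list lie below the lower line. Psme1 is at -0.47, while Psmb5, Psmb6, Psmb7, Psme3, Psme4 and Psmf1 lie between -0.07 and 0.30.

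The 23 genes of interferon gamma signalling and response were followed by class. In undifferentiated spermatogonia 16 were measured, 1 higher and 1 lower, with a median of -0.20. Of all genes measured there, 14.3% were higher and 8.38% lower. In Leydig-like cells 6 of 22 measured were higher and 0 lower (median 0.27), against 5.27% and 4.43% of all genes. Peritubular myoid cells had 5 of 16 higher and 0 lower (0.23), against 5.91% and 6.85%. Differentiating spermatogonia had 3 of 14 and 0 (0.32), against 16.2% and 10.1%. Sertoli-like cells had 5 of 21 higher and 4 lower, against 18.3% and 8.86%. In interstitial stromal cells 1 of 22 was higher and 1 lower, against 6.05% and 3.06%. Endothelial-like cells had 1 of 20 higher and 2 lower, against 8.65% and 5.55%. In undifferentiated spermatogonia Xaf1, an interferon-inducible gene, had 84.2 CPM in the knockout library and 16.8 CPM in the control (2.33, 2.04 to 2.63). Igtp, a GTPase, had 9 and 25 UMIs in the same class (-0.64, -1.97 to 0.46). Ifngr2, a chain of the interferon gamma receptor, had 13.9 CPM and 20.4 CPM there (-0.55, -1.003 to -0.12). In macrophage-like cells 22 were measured, 1 higher (Ifi47, 0.66) and 2 lower (Stat2, -0.67, and Iigp1, -1.38), against 6.87% and 8.06% of all genes. The chemokine Cxcl10 had 228 CPM in knockout and 188 CPM in control macrophage-like cells, and Bst2 297 CPM and 234 CPM.

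The rest of the proteasome gave the setting. Of all 14993 genes measured in undifferentiated spermatogonia, 14.3% were at least 1.5-fold higher in the knockout library and 8.38% lower. The lists below had at most 1 gene past the fold each, so their counts are not read as a trait of the lists. In undifferentiated spermatogonia all 14 constitutive 20S genes were measured, 0 higher and 1 lower, Psma7 itself (-1.38, -1.54 to -1.23), with a median of 0.12. Psma1 stood highest at 0.49. Of 19 genes of the 19S cap, which feeds ubiquitinated proteins into the core, 1 was higher, the ATPase gene Psmc2 (0.65), and 0 lower, with a median of 0.24. Psma8, the meiotic counterpart of Psma7, had 66.5 CPM and 57.9 CPM (0.20, -0.02 to 0.41). Of 10 genes of histone acetylation and histone exchange, the setting of PA200, 1 was lower, the histone variant gene H2afy (-0.81), and 0 higher; the acetyl-lysine reader Brdt stood at -0.53. Of 7 measured partners and reported substrates of PA28 gamma, 1 was higher, the cell cycle inhibitor Cdkn1a, with 19.5 CPM in the knockout library and 3.90 CPM in the control (2.31, 1.71 to 2.97), and 0 lower.

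Across the 10 control classes of at least 50 cells, the 3 genes most like each member were found among 17017 genes by Pearson's r of log2(CPM + 1), as a description over classes of 1 library that share its depth. Psmb8 was most like Slco2b1, a transporter gene (r = 0.986), Arpc4 and the MHC class I gene H2-T23 (0.962). Psmb9 was most like the MHC class I gene H2-M3 (0.965), Fli1 and Nlrc5 (0.949). Psme3 was most like Gins4, a DNA replication gene (0.991), and the cyclin F gene Ccnf (0.986). Psmb10 was most like Gas2l3 (0.977), Psme1 like Tmem160 (0.963), Psme2 like Helb (0.936) and Psmf1 like Cmtr2 (0.976). Psme4 had the lowest best match, Abtb2, at 0.883. Over the 8 knockout classes the r of Psmb8 with Slco2b1 was 0.966, that of Psmb9 with Nlrc5 was 0.890, and that of Psme2 with Helb was 0.116.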

How the data were processed

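The authors deposited raw UMI counts for each barcode. Cell Ranger 7.1.0 is named in the file headers and mm10 in the submitters' processing notes; other settings are not given in the sources used here. The matrices are unfiltered. Barcodes with at least 1000 UMIs, 500 genes and at most 20% mitochondrial UMIs were called cells, 10864 in the knockout and 11232 in the control library. Scrublet in scanpy 1.11.5, with the control's threshold for both libraries, removed 275 and 495 doublets. Both libraries were clustered together (2000 variable genes, 30 components, 15 neighbours, Leiden resolution 1, leidenalg 0.10.2) without the members, other proteasome genes and the MHC class I and interferon lists, into 29 clusters, named from fixed markers. Sub-clusters were made after seeing the data. UMIs were summed per class and given as UMIs per 1000000 (CPM). Intervals are exact (scipy 1.17.1): Poisson for levels, conditional for ratios, Clopper-Pearson for shares, and a count of 0 allows 3 counts. Log2 ratios are knockout over control with 0.5 UMI added. Measured means at least 30 UMIs over both libraries in the class, and a gene counts as higher or lower at 1.5-fold. Intervals were checked only on simulated counts that held counting error alone, so the check does not cover differences between cells or animals. Gene names and positions came from the files and GENCODE M21, which held 32158 of the 32285 identifiers. Beside the members, Psma7, Psma8 and Psmb5 to Psmb7, genes were named from the 2 highest and 2 lowest ratios of each list in undifferentiated spermatogonia and macrophage-like cells, from the 3 highest levels of the antigen and interferon lists in macrophage-like cells, and from the 3 genes most like each member; the others were chosen after their values were seen. Members and lists were chosen with earlier results of these data known.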

Additional observations from a re-analysis of the deposited data

Results flagged for a closer look

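Psmb10, Psme1 and Psme2 differed between the libraries in opposite directions in 2 neighbouring germ cell classes. Psmb10 stood at -1.16 (log2, knockout over control) in undifferentiated spermatogonia and at 1.11 in differentiating spermatogonia. Psme2 stood at -0.67 and 0.47, and Psme1 at -0.47 and 0.29. All of these counting intervals exclude 0, but with 1 library per genotype the difference between the classes was not tested. The differentiating class rests on 104 knockout cells, in 2 clusters. Psmb10 was higher in the knockout in both. Psme1 had 77.0 CPM in the knockout and 77.4 CPM in the control in the deeper cluster, so that its class ratio rests on the shallow cluster, at 0.70, and on the mix of clusters. With the control weighted to the knockout's sub-cluster mix, Psme1 in undifferentiated spermatogonia stood at -0.14 and Psme2 at -0.49.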

How the results depend on the processing

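No paired analysis was possible because each genotype has 1 library and no result comes from a test. Of 69 recomputed values of the 8 main results, 60 stayed within their counting interval, 9 moved and 0 reversed. A reversal was counted only for ratios past 1.5-fold as reported. It could not arise for the percentages or for smaller ratios, whose changes of sign were not counted. The share of immune subunit UMIs held by macrophage-like cells was 27.2% in the knockout library and 17.6% in the control with at most 10% mitochondrial UMIs, 28.5% and 18.8% with free RNA subtracted, and 21.6% and 14.6% without the lymphocyte-led sub-cluster. The log2 level of the immune subunits in macrophage-like over other cells was 4.38 and 4.21 with free RNA subtracted. The Psmb10 ratio in undifferentiated spermatogonia was -0.79 with the control weighted to the knockout's sub-cluster mix, and ran from -1.25 to -0.79 over 9 settings. Of 687 recomputed ratios of single members, 675 stayed and 12 moved, and 0 of those past 1.5-fold as reported reversed. Past 1.5-fold, Psme3 in endothelial-like cells held in 6 of 11 settings (-0.88 to -0.18), Psmb8 in peritubular myoid cells in 4 of 10, and Psme2 in undifferentiated spermatogonia in 10 of 12. Apart from the sub-cluster weighting and the lymphocyte removal, which change the cells by construction, the cause was not tested. With at least 2000 UMIs and 1000 genes per cell, and with the knockout library clustered alone, the macrophage cluster lost its name, and the knockout alone gave no undifferentiated class, so these gave no value. The few UMIs of Psmb8 in germ cells and of Psmb9 in differentiating spermatogonia limit what can be read there.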
